A study of Mus musculus with 2 samples.

Results

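The 7 genes described here encode a chemokine circuit and the receptors that place lymphocytes in tissue. They are the chemokines Cxcl9 (ENSMUSG00000029417), Cxcl10 (ENSMUSG00000034855) and Cxcl16 (ENSMUSG00000018920), and the receptors Cxcr3 (ENSMUSG00000050232), Cxcr6 (ENSMUSG00000048521), Cxcr4 (ENSMUSG00000045382) and S1pr1 (ENSMUSG00000045092). They were taken by symbol, 1 gene ID each, from the 32245 symbols of 2 droplet single-cell RNA libraries of mouse tumours. The mice, of WT genotype per the labels, bore MC38-OVA tumours, which arise from an injected murine colon cancer line engineered to make ovalbumin, a foreign antigen. One library came from mice on a diet with sitagliptin, a drug that blocks the protease DPP4, and the other from mice fed the control diet. Both libraries were made from tumour cells enriched for CD45+ cells on magnetic columns, with a kit that reads the 5' ends of transcripts. Not given in the sources used here are the mouse strain, the age and the number of mice per library.

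CXCL9 and CXCL10 are secreted after interferon exposure and draw activated T and NK cells through CXCR3. CXCL16 is made as a membrane-bound chemokine, can be shed by proteases, and is the ligand of CXCR6, a receptor of tissue-resident and effector T cells. CXCR4 answers to CXCL12, and S1PR1 senses sphingosine-1-phosphate and leads lymphocytes out of tissue into blood and lymph. DPP4 removes amino-terminal dipeptides from several chemokines, CXCL9, CXCL10 and CXCL12 among them. RNA counts do not show that step.

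With 1 library per diet there is no replicate check, so no test was run between the diets. Levels are UMIs (counted RNA molecules) of the gene scaled to the UMI total of the class (counts per 1e6 UMIs, CPM), with exact Poisson 95% intervals. Ratios are sitagliptin over control with exact conditional 95% intervals. Both cover counting error only and treat every UMI as independent, although a few cells hold many UMIs of one chemokine. CPM levels of different genes were not ranked against each other. UMIs of a gene per UMI of another gene were compared between classes or libraries where stated.

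The sitagliptin library held 9766 barcodes and 76788699 UMIs and the control library 8694 barcodes and 64139749 UMIs, with medians of 5158.5 and 5074 UMIs per barcode. No barcode had fewer than 2001 UMIs, and 132 barcode sequences occurred in both libraries. Barcodes were called by UMIs of marker genes. The calls gave 4248 monocytes and macrophages in the sitagliptin library and 3463 in the control library, 320 and 183 T cells, 119 and 77 NK cells, and 139 and 95 dendritic cells. Another 601 and 980 barcodes carried tumour or stromal genes with at most 1 UMI of Ptprc, the gene for CD45, although both samples are labelled CD45+. They are called Ptprc-low cells below. Barcodes that met the rules of more than 1 class (716 and 745), barcodes of 2 clusters of low-UMI mixtures (2113 and 1703) and barcodes that met no rule (885 and 905) were kept out of all classes. Each low-UMI cluster came mostly from 1 library, with 1750 and 222 barcodes in one and 363 and 1481 in the other. Median UMIs were 6572 and 5363 in monocytes and macrophages, 3483 and 3579 in T cells, 3692 and 3830 in NK cells, 5245 and 3806 in dendritic cells, and 21050 and 15953.5 in Ptprc-low cells.

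Cxcl9 was a myeloid transcript in both libraries and stood higher in monocytes, macrophages and dendritic cells of the sitagliptin library. Monocytes and macrophages held 18790 Cxcl9 UMIs, or 578 CPM (570 to 586), in the sitagliptin library and 9999 UMIs, or 451 CPM (442 to 460), in the control library. The ratio was 1.28 (1.25 to 1.31). They carried 64.1% and 63.0% of all Cxcl9 UMIs. Dendritic cells had 428 CPM (383 to 476) in the sitagliptin library and 229 CPM (185 to 280) in the control library. Monocytes and macrophages therefore stood first and dendritic cells second of the 5 classes in each library, with no overlap of the intervals. Ptprc-low cells had 18.8 and 22.9 CPM, and NK cells had 1 and 0 UMIs, where 0 UMIs allows up to 9.24 CPM (3 counts).

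**Figure D1:**
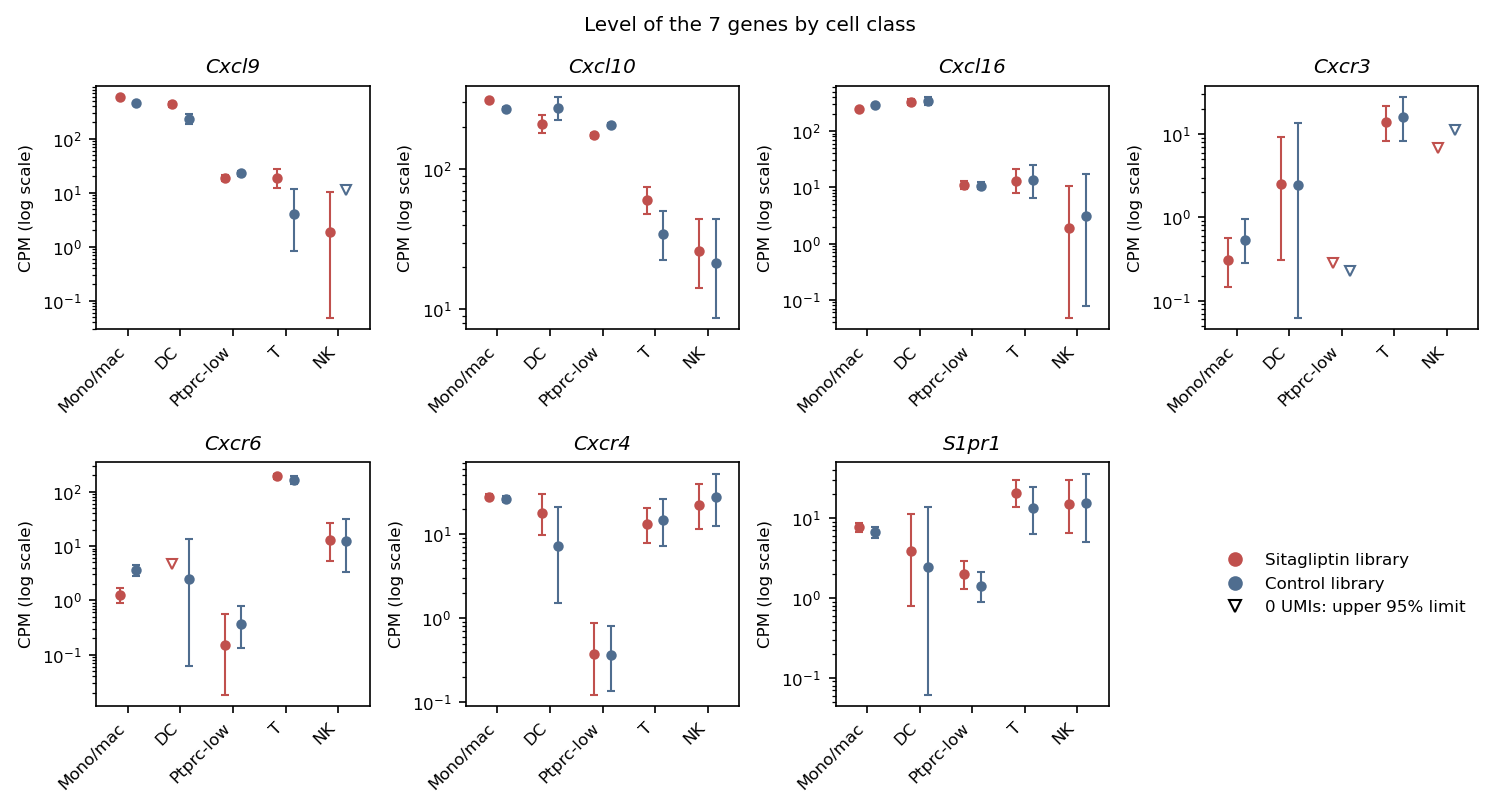
Level of each of the 7 genes (CPM, log scale) in 5 cell classes, sitagliptin library left of control library; points are summed UMIs of the class as CPM, bars exact Poisson 95% intervals, and open triangles the upper limit where 0 UMIs were counted. Cxcl9 and Cxcl16 are highest in monocytes, macrophages and dendritic cells, Cxcr6 in T cells at 191 and 165 CPM, and Cxcl10 is also high in Ptprc-low cells at 175 and 207 CPM.

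Over monocytes and macrophages as a whole, the Cxcl9 difference lay more in the amount per positive cell than in the number of positive cells. Their clusters, described below, did not all share this pattern. After each cell was thinned to 2000 UMIs, 30.2% of monocytes and macrophages in the sitagliptin library and 29.6% in the control library had a Cxcl9 UMI. For background, 1 of 119 NK cells in the sitagliptin library (0.840%) and 0 of 77 in the control library (95% upper limit 4.68%) did. Positive cells averaged 3.34 and 2.77 UMIs. Cells with at least 5 UMIs made up 6.80% in the sitagliptin library and 5.02% in the control library. The 10% of cells with the most Cxcl9 held 67.2% and 64.6% of its thinned UMIs.

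Cxcl10 had a broader set of sources than Cxcl9. Monocytes and macrophages had 313 CPM (307 to 319) in the sitagliptin library and 271 CPM (264 to 278) in the control library, a ratio of 1.15 (1.12 to 1.19). They held 57.7% of all Cxcl10 UMIs in the sitagliptin library and 43.5% in the control library. Ptprc-low cells had 2294 UMIs at 175 CPM (168 to 182) in the sitagliptin library and 3364 UMIs at 207 CPM (200 to 214) in the control library. The ratio was 0.845 (0.801 to 0.891) and ran from 0.591 to 0.870 under alternative processing. The highest single cell held 340 of these UMIs in the sitagliptin library and 162 in the control library. At equal depth 12.5% and 14.8% of Ptprc-low cells had a Cxcl10 UMI. Their part of all Cxcl10 UMIs was 13.03% in the sitagliptin library (601 cells) and 24.4% in the control library (980 cells). In dendritic cells Cxcl10 had 211 CPM (180 to 246) and 272 CPM (224 to 328). Dendritic cells and Ptprc-low cells of the sitagliptin library, and dendritic cells and monocytes and macrophages of the control library, did not differ beyond their intervals. The 10% of monocytes and macrophages with the most Cxcl10 held 85.04% and 85.2% of its thinned UMIs.

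The number of Cxcl10 UMIs per Cxcl9 UMI separated the sources, a ratio in which the capture of the 2 transcripts cancels between classes. It was 0.541 (0.528 to 0.554) in the sitagliptin library and 0.600 (0.581 to 0.620) in the control library in monocytes and macrophages. Ptprc-low cells had 9.29 (8.14 to 10.6) and 9.02 (8.10 to 10.1). Per UMI of the macrophage gene C1qa, Cxcl10 stood at 11.5 and 15.7 UMIs in Ptprc-low cells, at 3.95 and 2.17 in T cells, at 3.50 and 3.50 in NK cells and at 0.259 and 0.174 in monocytes and macrophages. The part of free macrophage RNA in these counts was not tested. In dendritic cells the ratio of Cxcl10 to Cxcl9 was 0.494 (0.408 to 0.597) in the sitagliptin library and 1.19 (0.898 to 1.58) in the control library, and these intervals do not overlap.

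**Figure D2:**
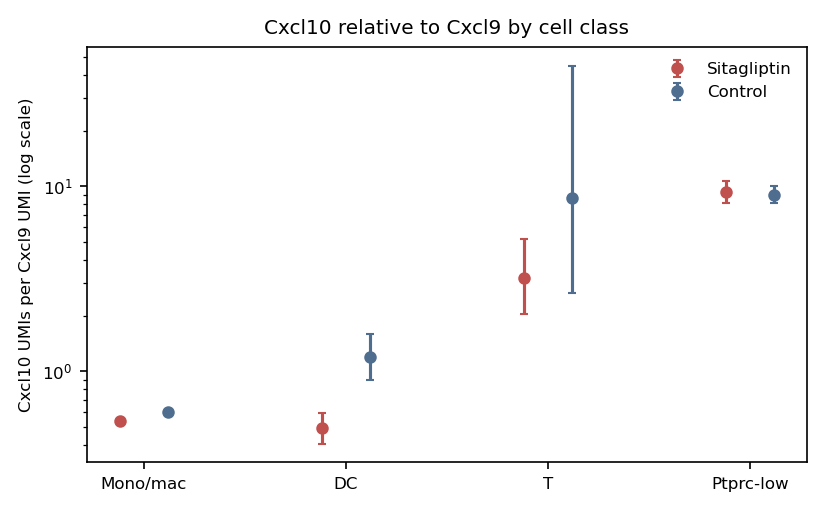
Cxcl10 UMIs per Cxcl9 UMI (log scale) in 4 cell classes, sitagliptin library left of control library, with 95% counting intervals. Ptprc-low cells lie near 9 in both libraries, while monocytes and macrophages lie at 0.541 and 0.600.

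The promoters of both genes are shown because the genes share interferon regulation yet differed in their sources. RefSeq promoters (build GRCm38.p6) run from 250 bases before to 50 bases after the start, and 5 of the 7 genes matched an entry, all but Cxcl16 and S1pr1. Both lie on the minus strand of chromosome 5, Cxcl9 at chr5:92328030-92328329 and Cxcl10 at chr5:92348840-92349139. Capitals mark matches to the interferon-stimulated response element core (GAAA, any 2 bases, GAAA), the gamma-activated site TTCNNNGAA or the NF-kB consensus, searched on both strands.
Cxcl9: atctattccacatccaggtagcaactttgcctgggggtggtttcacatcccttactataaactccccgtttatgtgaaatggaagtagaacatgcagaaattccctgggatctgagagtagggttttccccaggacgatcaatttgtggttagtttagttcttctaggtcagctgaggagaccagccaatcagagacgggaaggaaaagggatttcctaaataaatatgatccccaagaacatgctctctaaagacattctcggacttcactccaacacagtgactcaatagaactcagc
Cxcl10: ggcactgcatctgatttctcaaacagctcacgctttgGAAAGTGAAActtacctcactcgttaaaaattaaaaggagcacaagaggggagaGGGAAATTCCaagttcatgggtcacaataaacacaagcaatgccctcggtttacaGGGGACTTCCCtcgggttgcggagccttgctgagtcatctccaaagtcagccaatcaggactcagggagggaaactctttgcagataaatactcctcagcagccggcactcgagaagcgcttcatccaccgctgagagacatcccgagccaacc
The Cxcl10 window held 1 response element match, starting 213 bases upstream, and 3 NF-kB matches, starting 159, 104 and 103 bases upstream, the last 2 overlapping. These letter patterns occurred in none of the windows of Cxcl9, Cxcr3, Cxcr6 and Cxcr4, and no gamma-activated site pattern occurred in that of Cxcl10. Only exact matches within the windows were searched, so variant sites and sites farther away would not be seen. Of 32851 promoters of this length, 3.44% held the response element core, 8.30% the gamma-activated site and 8.46% the NF-kB consensus.

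Cxcl16 went the other way from Cxcl9 in monocytes and macrophages. Its level there was 243 CPM (238 to 249) in the sitagliptin library and 291 CPM (284 to 299) in the control library, a ratio of 0.835 (0.808 to 0.863). At equal depth 33.6% of these cells in the sitagliptin library and 38.6% in the control library had a Cxcl16 UMI. Dendritic cells had 327 CPM (288 to 370) and 341 CPM (286 to 402), a ratio of 0.961 (0.779 to 1.19). They lay above monocytes and macrophages beyond the intervals in the sitagliptin library but not in the control library. Ptprc-low cells had 10.9 and 10.8 CPM, T cells 13.1 and 13.3 CPM. Of the proteases known to shed CXCL16, Adam10 had 328 and 320 CPM in monocytes and macrophages, a ratio of 1.02 (0.994 to 1.06). Adam17 had 88.4 and 75.8 CPM, a ratio of 1.17 (1.10 to 1.24).

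Within monocytes and macrophages, 7 clusters were made without the 7 genes and their pathway. All 7 had more Cxcl9 in the sitagliptin library, with ratios of 1.24 to 2.27 and intervals above 1, and at equal depth the share of positive cells was higher in 5. The cluster led by the interferon-induced genes Ifit2, Cmpk2 and Rsad2 had the highest Cxcl9 level, 1105 CPM in the sitagliptin library and 825 CPM in the control library. The highest of the 7 Cxcl9 ratios, 2.27 (1.97 to 2.61), was found in the cluster led by Cxcl3 and Mmp12, with 247 and 109 CPM. The share of Cxcl9-positive cells there was 19.1% in the sitagliptin library and 12.6% in the control library at equal depth, and positive cells averaged 2.34 and 1.88 UMIs. In the cluster led by Hp and Chil3, 19.3% and 14.0% were positive, averaging 3.36 and 3.52 UMIs. In the cluster led by Retnla and Lyz1, 13.1% and 3.88% (29 and 4 cells) were positive, averaging 1.72 and 2.25 UMIs. In each of the remaining clusters, positive cells averaged more UMIs in the sitagliptin library.

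Cxcl10 followed another order across the same clusters. The Ifit2 cluster had 771 and 657 CPM, and the cluster led by Hp, Chil3 and Plac8, genes of circulating monocytes, had 684 and 430 CPM, a ratio of 1.59 (1.45 to 1.75). The cluster led by Retnla and Lyz1 had 230 and 65.2 CPM, a ratio of 3.53 (2.48 to 5.18). The cluster led by Ccl24 had 86.7 and 82.8 CPM, a ratio of 1.05 (0.904 to 1.21). Cxcl10 ratios ran from 0.941 to 3.53, with intervals above 1 in 4 clusters and below 1 in 0. Cxcl16 was also highest in the Ifit2 cluster, at 364 and 407 CPM, with ratios of 0.807 to 1.19 and intervals below 1 in 4 clusters.

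**Figure D3:**
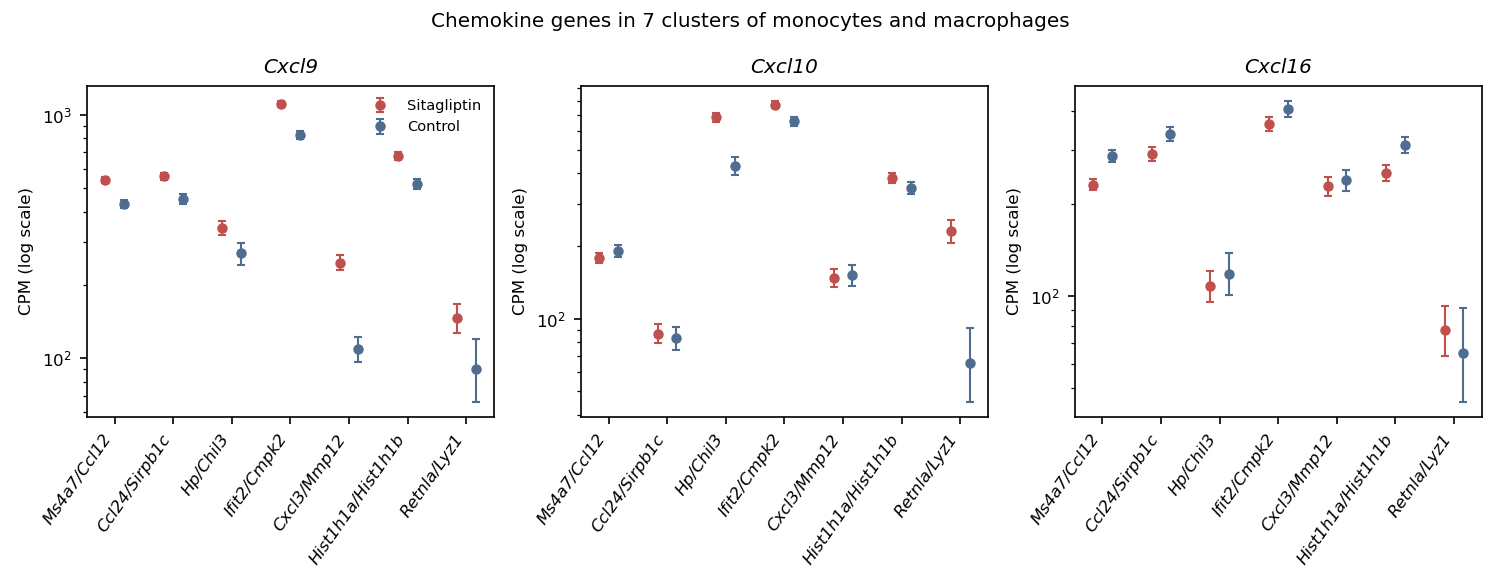
Levels of Cxcl9, Cxcl10 and Cxcl16 (CPM, log scale) in 7 clusters of monocytes and macrophages named by 2 leading genes, sitagliptin library left of control library, with exact Poisson 95% intervals. Cxcl9 is higher in the sitagliptin library in all 7, whereas Cxcl10 ratios run from 0.941 to 3.53.

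The same cells tended to carry both CXCR3 ligands. At equal depth, 28.4% of Cxcl9-positive monocytes and macrophages in the sitagliptin library had a Cxcl10 UMI, against 15.5% of Cxcl9-negative ones. In the control library these shares were 27.1% and 13.4%. Cxcl16 was found in 44.2% of Cxcl9-positive and 29.0% of Cxcl9-negative cells of the sitagliptin library, and in 48.9% and 34.2% in the control library. The intervals of the shares did not overlap in any of these 4 pairs.

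In dendritic cells, the antigen-presenting cells that prime T cells, Cxcl9 had a ratio of 1.87 (1.48 to 2.38). At equal depth 29.5% of them in the sitagliptin library and 16.8% in the control library had a Cxcl9 UMI. Mature dendritic cells, read from Fscn1, Cacnb3, Ccl22 and Il4i1, had 539 CPM (51 cells) and 250 CPM (39 cells) of Cxcl9, a ratio of 2.16 (1.49 to 3.18). cDC2-like cells had 91 UMIs in 37 cells and 1 UMI in 17 cells, a ratio of 30.7 (5.37 to 1225). cDC1-like cells had 69 UMIs in 19 cells, 27 of them in 1 cell, and 4 UMIs in 6 cells. Dendritic cells in none of these 3 subsets had 31 UMIs in 32 cells (215 CPM) and 52 UMIs in 33 cells (325 CPM), a ratio of 0.662 (0.410 to 1.05). The dendritic cell ratio of Cxcl9 depended on how the class was drawn. It was 1.18 with classes from clusters, 1.23 with mixed barcodes counted in and 2.74 with the stricter marker rule.

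The class ratio of Cxcl10 in dendritic cells was 0.776 (0.607 to 0.995), but the subsets did not share a direction. Mature dendritic cells had 282 and 155 CPM, a ratio of 1.82 (1.13 to 3.04), cDC2-like cells 309 and 243 CPM, and cDC1-like cells 5 and 0 UMIs. Dendritic cells in none of these subsets (32 and 33 cells) had 118 and 444 CPM, a ratio of 0.266 (0.147 to 0.456). The class ratio turned to 1.39 with classes from clusters, 1.30 under the stricter rule and 1.26 when clusters were weighted alike in the libraries. Mature dendritic cells also had the highest Cxcl16 of the 3 subsets, 535 and 534 CPM, a ratio of 1.003 (0.757 to 1.34).

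Cxcr3, the receptor of CXCL9 and CXCL10, was sparse everywhere. All barcodes together held 89 Cxcr3 UMIs in the sitagliptin library and 68 in the control library. T cells had 19 and 12 of them, 13.9 CPM (8.35 to 21.6) and 15.96 CPM (8.25 to 27.9), a ratio of 0.868 (0.400 to 1.962). Before thinning, 5.31% of T cells in the sitagliptin library and 5.46% in the control library had a Cxcr3 UMI. Of Ptprc-low cells, whose median depth was far above that of T cells, 0 of 601 and 0 of 980 did (95% upper limits 0.612% and 0.376%). At equal depth the T cell shares were 2.81% in the sitagliptin library and 3.28% in the control library, from 9 and 6 cells. NK cells had 0 UMIs in 119 and 77 cells, which allows up to 5.61 and 9.24 CPM. Monocytes and macrophages had 0.308 and 0.541 CPM from 10 and 12 UMIs. A difference in T cells within the interval given was not detectable at this depth, and the stricter marker rule moved the ratio to 2.68 (0.2997 to 127).

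Cxcr6 was found mainly in T cells among the 5 classes. They had 262 UMIs at 191 CPM (169 to 216) in the sitagliptin library and 124 UMIs at 165 CPM (137 to 197) in the control library. The ratio was 1.16 (0.932 to 1.45). These UMIs were 28.0% and 16.1% of all Cxcr6 UMIs. Barcodes that met the rules of more than 1 class held 52.9% and 58.6%, with a ratio of 0.894 (0.785 to 1.02). At equal depth 96 of 320 T cells in the sitagliptin library and 48 of 183 (26.2%) in the control library had a Cxcr6 UMI, against 0.165% and 0.837% of monocytes and macrophages. NK cells had 13.1 and 12.3 CPM from 7 and 4 UMIs. T cells with a Cd8a or Cd8b1 UMI and no Cd4 UMI had 227 CPM (242 cells) and 218 CPM (134 cells), a ratio of 1.04 (0.834 to 1.31). T cells without UMIs of Cd4, Cd8a and Cd8b1 had 56.9 and 25.2 CPM from 12 and 4 UMIs.

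Cycling T cells, with at least 3 UMIs of cell cycle genes, had 184 CPM of Cxcr6 (76 cells) in the sitagliptin library and 123 CPM (61 cells) in the control library, a ratio of 1.503 (1.03 to 2.24). At equal depth 31.6% of them in the sitagliptin library and 14.8% in the control library had a Cxcr6 UMI. Other T cells had 195 and 196 CPM, a ratio of 0.997 (0.763 to 1.31). The difference between cycling and other T cells was not tested. T cells of the sitagliptin library had 0.362 Cxcr6 UMIs per Cd3e UMI (0.313 to 0.417) and T cells of the control library 0.492 (0.394 to 0.612). This order is opposite to that of the Cxcr6 level. Cd3e itself, 1 of the 4 marker genes of the T cell class, differed between the libraries, at 528 and 335 CPM in T cells. Trac, another of these markers, had 195 and 205 CPM. The Cxcr6 to Cd3e ratio therefore also carries the difference in Cd3e.

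**Figure D4:**
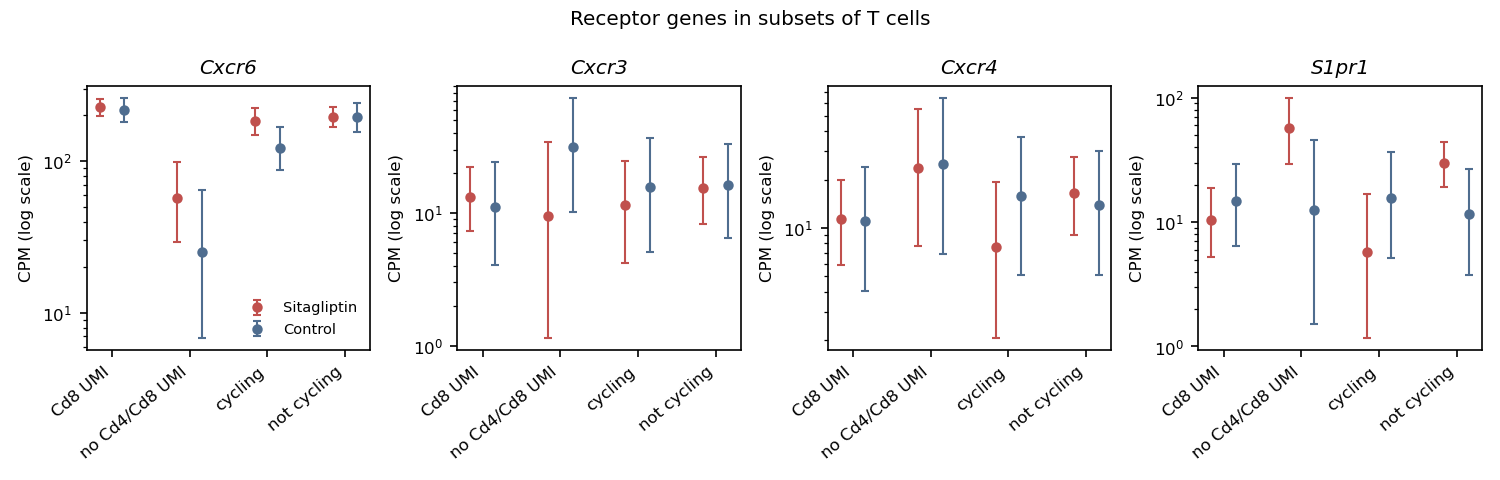
Levels of Cxcr6, Cxcr3, Cxcr4 and S1pr1 (CPM, log scale) in subsets of T cells, sitagliptin library left of control library, with exact Poisson 95% intervals. Cxcr6 in cycling T cells is at 184 and 123 CPM, and for Cxcr3 and Cxcr4 the intervals of the libraries overlap in all 4 subsets.

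In monocytes and macrophages Cxcr6 stood at 1.26 CPM (41 UMIs) in the sitagliptin library and 3.56 CPM (79 UMIs) in the control library, a ratio of 0.354 (0.237 to 0.523). In the same class Cd3e, a T cell gene, was present at 60 and 56 UMIs, although no barcode there had more than 2 UMIs of the 4 T cell marker genes. The part of T cell RNA in this ratio was not tested. It was 1.03 under the stricter marker rule and 0.173 after thinning.

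Cxcr4 was spread over leukocytes and nearly absent from Ptprc-low cells, where it had 0.381 and 0.369 CPM. Monocytes and macrophages held 66.4% and 65.2% of its UMIs, at 28.0 CPM (26.2 to 29.9) and 26.0 CPM (23.9 to 28.2), a ratio of 1.08 (0.971 to 1.20). NK cells had 22.4 and 27.7 CPM. T cells had 13.1 CPM (7.78 to 20.8) in the sitagliptin library and 14.6 CPM (7.30 to 26.2) in the control library, a ratio of 0.897 (0.401 to 2.10) that ran from 0.536 to 1.18 under the alternatives. T cells lay below monocytes and macrophages beyond the intervals in the sitagliptin library but not in the control library. Among monocyte and macrophage clusters, the one led by Cxcl3 and Mmp12 had 39.6 and 27.7 CPM, a ratio of 1.43 (1.06 to 1.94), the 1 cluster of 7 whose interval excluded 1. Cxcl12, the ligand gene of CXCR4, had 2 and 1 UMIs in monocytes and macrophages and 9 and 0 UMIs in Ptprc-low cells. Hardly any of it was therefore seen in these classes. It was not counted in the barcodes kept out of all classes.

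Among the 5 classes S1pr1 was highest in T and NK cells and lower in the others. T cells had 28 UMIs at 20.4 CPM (13.6 to 29.5) in the sitagliptin library and 10 UMIs at 13.3 CPM (6.38 to 24.5) in the control library, a ratio of 1.54 (0.724 to 3.54). NK cells had 14.95 and 15.4 CPM from 8 and 5 UMIs. T cells outside the cycle had 29.6 CPM and 11.5 CPM, a ratio of 2.57 (0.965 to 8.59), and cycling T cells 5.70 and 15.7 CPM from 3 and 5 UMIs. T cells with a Cd8a or Cd8b1 UMI and no Cd4 UMI had 10.4 and 14.8 CPM from 11 and 8 UMIs, a ratio of 0.706 (0.259 to 2.02). T cells without UMIs of Cd4, Cd8a and Cd8b1 had 56.9 and 12.6 CPM from 12 and 2 UMIs, a ratio of 4.52 (1.01 to 41.6). Monocytes and macrophages had 7.60 CPM (6.68 to 8.61) and 6.63 CPM (5.60 to 7.79) and held 50.9% and 53.3% of all S1pr1 UMIs. Their level lay below that of T cells beyond the intervals in the sitagliptin library but not in the control library, and NK cells did not differ from either class beyond the intervals. The T cell ratio was 3.75 under the stricter marker rule, with an interval of 0.482 to 169 that included 1. S1pr1 was seldom detected in T cells at equal depth, with or without Cxcr6. In the sitagliptin library 1 of 96 Cxcr6-positive and 12 of 224 Cxcr6-negative cells had an S1pr1 UMI. These shares had overlapping intervals, 0.0264% to 5.67% and 2.80% to 9.17%. In the control library 1 of 48 (2.08%) and 3 of 135 (2.22%) had one, also with overlapping intervals.

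Set side by side, the ratios of the producers had narrower intervals than those of the responders. In monocytes and macrophages the ratios were 1.28 for Cxcl9, 1.15 for Cxcl10 and 0.835 for Cxcl16, each with an interval that excluded 1. In T cells the receptors had ratios of 0.868 for Cxcr3, 1.16 for Cxcr6, 0.897 for Cxcr4 and 1.54 for S1pr1, each with an interval that included 1. The UMIs behind them differ greatly, 18790 and 9999 for Cxcl9 in monocytes and macrophages but 19 and 12 for Cxcr3 in T cells. T cells made up 6.58% (5.90 to 7.31) of the classed immune cells in the sitagliptin library and 4.77% (4.11 to 5.49) in the control library, a ratio of 1.38 (1.16 to 1.65). With mixed barcodes counted as T cells that ratio turned to 0.930.

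**Figure D5:**
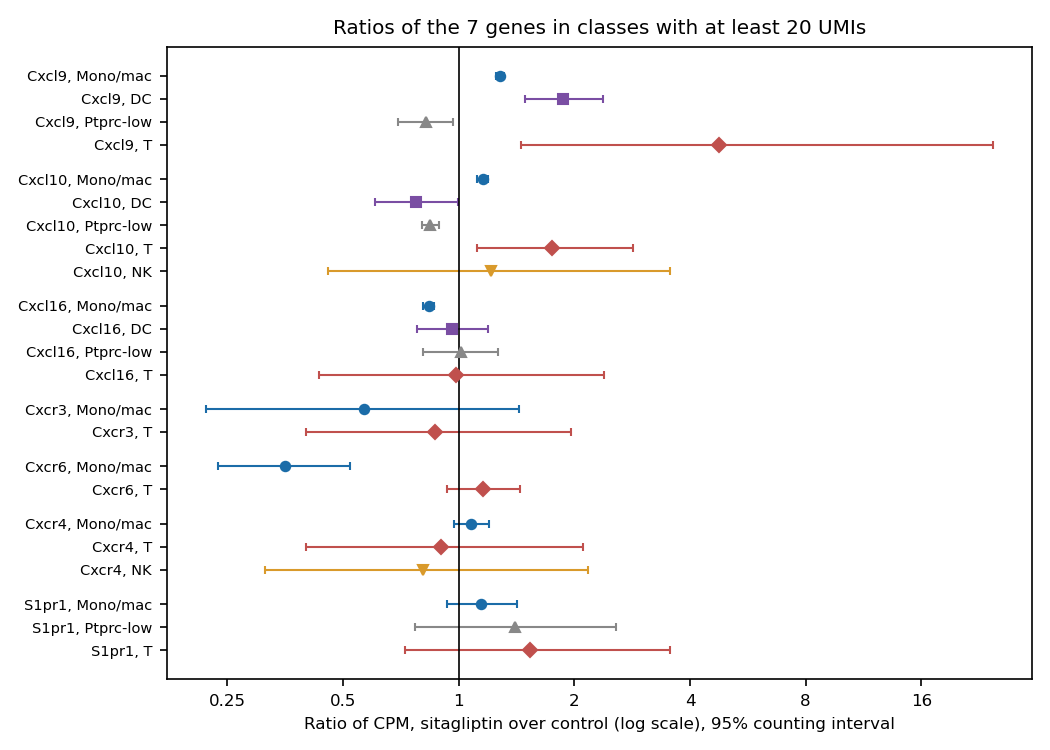
Ratio of CPM, sitagliptin over control (log scale, 1 means equal), for each gene in each class where the libraries together hold 20 UMIs or more, with 95% counting intervals. In T cells the intervals of all 4 receptors include 1, while Cxcl9, Cxcl10 and Cxcl16 in monocytes and macrophages exclude it.

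T cells also carried some CXCR3 ligand RNA. Cxcl10 had 60.6 CPM (48.2 to 75.1) in T cells of the sitagliptin library and 34.6 CPM (22.6 to 50.7) in T cells of the control library, a ratio of 1.75 (1.12 to 2.83). At equal depth, however, 4.69% of T cells in the sitagliptin library and 6.56% in the control library had a Cxcl10 UMI, against 5.04% and 2.60% of NK cells. Cxcl9 had 26 and 3 UMIs, a ratio of 4.75 (1.46 to 24.5), and 16 of the 26 came from 1 cell. The ratio of Cxcl9 was 1.05 with classes from clusters, and that of Cxcl10 was 3.48 under the stricter marker rule. The 12 macrophage genes of the marker rule summed to a median of 1 and at most 12 UMIs per T cell in the sitagliptin library, and to 0 and at most 8 in the control library. The part of macrophage RNA in these ligand counts was not tested.

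Counted against all genes with at least 20 UMIs in the class, 3 of the 7 genes were higher by 1.5-fold or more in T cells (Cxcl9, Cxcl10 and S1pr1), where 8.1% of 7872 genes were. None was lower, where 10.2% of genes were. In monocytes and macrophages 0 were higher (background 3.96%) and 2 of 7, Cxcr3 and Cxcr6, were lower (4.79%). In dendritic cells 1 of 3 measured, Cxcl9, was higher (10.1%) and 0 were lower (13.6%). In NK cells 0 of 2 were higher (11.8%) and 0 lower (11%). In Ptprc-low cells 0 of 4 were higher (3.7%) and 0 lower (3.28%).

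A list of 82 genes of these pathways, 80 of them in the files, showed how the rest of the axis stood. In T cells 6 of 57 measured were higher by 1.5-fold and 3 lower, with a median log2 ratio of -0.02, beside -0.06 over all genes. By the same limit 8.1% of all measured genes in T cells were higher and 10.2% lower. Ifng, the interferon that induces Cxcl9 and Cxcl10, had 135 CPM in T cells of the sitagliptin library and 79.8 CPM in T cells of the control library, a ratio of 1.69 (1.26 to 2.30). Dpp4 had 82.4 and 63.9 CPM, a ratio of 1.29 (0.913 to 1.85). Klf2, a transcription factor that drives S1pr1, had 19.0 and 38.6 CPM, a ratio of 0.492 (0.278 to 0.865). It was picked after its values were seen, with 26 and 29 UMIs in T cells. The Klf2 ratio also lay below 1 in dendritic cells, at 0.502 (0.327 to 0.768). In monocytes and macrophages it was 0.694 (0.656 to 0.733), and in NK cells 0.838 with an interval of 0.462 to 1.55 that included 1. Cd69, whose protein holds S1PR1 inside the cell, had 129 and 157 CPM in T cells, a ratio of 0.823 (0.648 to 1.05).

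In NK cells 6 of 41 list genes were higher and 2 lower, with a median log2 ratio of 0.08, beside -0.02 over all genes. Of all measured genes in NK cells, 11.8% were higher and 11% lower. Cd74, known as a receptor chain for the cytokine MIF, had 96 and 33 UMIs, a ratio of 1.77 (1.18 to 2.71). Its level in NK cells was 179 and 102 CPM, beside 23247 and 20865 CPM in dendritic cells. Monocytes and macrophages had 7892 and 9682 CPM. The part of RNA from other cells in the NK cell count was not tested. The Cd74 ratio was 0.829 in T cells and 0.815 in monocytes and macrophages, but 1.11 in dendritic cells. Rgs2, a regulator of G-protein signalling, had a ratio of 1.63 (1.24 to 2.16) in NK cells. Itga1, an integrin chain that binds collagen, had 0.617 (0.425 to 0.896). Ifng, picked after its values were seen, had 13 and 33 UMIs in NK cells, a ratio of 0.239 (0.115 to 0.466), below 1 where T cells lay above 1, a difference that was not tested.

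In dendritic cells 12 of 48 list genes were higher and 2 lower, with medians of 0.05 for the list and -0.05 for all genes. Of all measured genes in dendritic cells, 10.1% were higher and 13.6% lower. Rgs2 had a ratio of 1.88 (1.31 to 2.75) and the oxysterol receptor Gpr183 1.61 (1.04 to 2.56), while Mif had 0.614 (0.517 to 0.730). The Mif ratio also lay below 1 in T cells, 0.687 (0.624 to 0.756), and in NK cells, 0.723 (0.608 to 0.860). In monocytes and macrophages it was 0.820 (0.806 to 0.834). Monocytes and macrophages had 3 of 65 list genes higher and 6 lower, with medians of -0.06 and -0.07. Of all measured genes in that class, 3.96% were higher and 4.79% lower. Rgs18 had a ratio of 2.09 (1.37 to 3.27), Rgs16 0.478 (0.325 to 0.698) and the lymph node homing receptor Ccr7 0.590 (0.397 to 0.873), each below 4 CPM in either library.

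The 4 genes of interferon gamma signalling named here did not share a direction in monocytes and macrophages. Irf1, an interferon-induced transcription factor, stood at 388 and 405 CPM, a ratio of 0.958 (0.933 to 0.985). Ifngr2, a chain of the interferon gamma receptor, had 207 and 231 CPM, a ratio of 0.896 (0.864 to 0.929). Ifngr1, the other chain, had 357 and 364 CPM, a ratio of 0.982 with an interval of 0.955 to 1.01 that included 1. The kinase gene Jak2 lay above 1, with 105 and 93.2 CPM and a ratio of 1.13 (1.07 to 1.20).

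Across 17 clusters of at least 50 barcodes, the genes with the most alike patterns were compared by Pearson r of log2(CPM + 1), among 11067 genes and in each library on its own. The clusters share libraries and differ in depth, so these values only describe, and 1 of the 17 clusters differs between the libraries. Cxcl9 was most like Lpcat2 (r of 0.953 and 0.962), F11r and Aif1. Cxcl10 was most like Ifi211 (0.841 and 0.827), Gbp2 and Irgm1, known as interferon-induced genes. Cxcl16 was most like F11r (0.966 and 0.985), Basp1 and Bcl2a1a, so F11r stood near both Cxcl9 and Cxcl16. Cxcr6 was most like the T cell genes Cd3e (0.976 and 0.972) and Cd8a, with Sv2c between them. Cxcr4 was most like the general leukocyte genes Srgn (0.959 and 0.977), Laptm5 and Vav1. S1pr1 was most like Gab3 (0.673 and 0.650), Fam169b and Igf2r, and Cxcr3 like Miga1 (0.852 and 0.802), Map4k2 and Tg, both with few UMIs per cluster.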

How the data were processed

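The authors deposited, per library, raw UMI counts per gene and barcode for 32285 gene IDs. Not given in the sources used here are the aligner, the counting program and the genome build. Groups came from the treatment labels. The 7 genes, the pathway list and the marker lists were chosen with earlier results of these data known.

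Counts were read with scanpy 1.11.5 (Python 3.11.15, scipy 1.17.1, leidenalg 0.10.2), and genes that share a symbol were summed. Scrublet marked 0 barcodes by its automatic threshold, so the highest-scoring 6% were removed (586 in the sitagliptin library and 522 in the control library), leaving 9180 and 8172.

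Classes came from marker UMIs, with thresholds set after the marker UMIs were seen. T cells needed at least 3 UMIs from at least 2 of Cd3d, Cd3e, Cd3g and Trac. NK cells needed 2 UMIs and dendritic cells 3, from at least 2 marker genes and with a Ptprc UMI. Monocytes and macrophages needed at least 20 macrophage-list UMIs per 10000, and T and NK cells and Ptprc-low cells fewer than 10. At most 2 UMIs of any other list were allowed, except NK genes in T cells, NK and dendritic cell genes in Ptprc-low cells, and macrophage genes, which were limited by rate (fewer than 20 per 10000 in dendritic cells). Near these limits, 38 and 45 barcodes with enough T cell UMIs had 10 to 20 macrophage-list UMIs per 10000, 450 and 486 had 20 or more, and 319 and 244 monocytes and macrophages had 20 to 30. Leiden clusters (resolution 1.0, 2000 variable genes, 30 components, 15 neighbours) were made without the 7 genes and the pathway list.

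UMIs were summed per class and library. Shares of positive cells used each cell thinned to 2000 UMIs (no cell was shallower), except the Cxcr3 shares given before thinning. Class shares have exact Clopper-Pearson 95% intervals. Named pathway genes had at least 100 UMIs over both libraries in a class and a ratio past 1.5-fold there, at most 6 per class and direction. Some genes that met this rule are not reported here. Outside it, Dpp4, Cd69 and Klf2 in T cells, Ifng in NK cells, Adam10, Adam17, Irf1, Ifngr1, Ifngr2 and Jak2 in monocytes and macrophages, and Cxcl12 were named after their values were seen, for their known roles. Values of Klf2, Cd74 and Mif were also given in further classes where they did not meet the rule. The ratio script was tested on simulated data. The labels give no batch.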

Additional observations from a re-analysis of the deposited data

Results flagged for a closer look

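The CXCR3 ligand genes had ratios, sitagliptin over control, on both sides of 1 in different classes of the same 2 libraries, with intervals that excluded 1. For Cxcl9 they were 4.75 in T cells, 1.87 in dendritic cells and 1.28 in monocytes and macrophages, but 0.820 in Ptprc-low cells. For Cxcl10 they were 1.75 in T cells and 1.15 in monocytes and macrophages, but 0.776 in dendritic cells and 0.845 in Ptprc-low cells. The difference between classes was not tested, because each diet had 1 library. Of these values, that of Cxcl9 in T cells rests on 26 and 3 UMIs, and that of Cxcl10 in dendritic cells turned round under 3 alternatives. The ratio of Cxcl9 in Ptprc-low cells was 0.951 after thinning, with an interval of 0.575 to 1.55 that included 1. At equal depth, 4.69% of T cells in the sitagliptin library and 6.56% in the control library had a Cxcl10 UMI. The T cell ratio of Cxcl10 ran from 1.22 to 3.48 under the alternatives.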

How the results depend on the processing

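No paired analysis was possible because each diet had 1 library, and for the same reason no replicate could be left out. Of the main ratios and the T cell share, 83 of 99 alternative values lay within the counting interval of the value reported and 16 outside it. Of these 99, 8 lay on the other side of 1 from it, which were 1 for the T cell share and, in T cells, 3 for Cxcr3 (range 0.631 to 2.68) and 4 for Cxcr4 (0.536 to 1.18), both with reported intervals that include 1. For Cxcl9 in monocytes and macrophages (1.28) the values were 1.36 with mixed barcodes counted in, 1.23 after thinning, 1.24 with equal weight per cell and 1.33 at an equal cluster mix. For Cxcl10 there (1.15) they were 1.35 under the stricter marker rule, 1.39 after thinning, 1.07 in barcodes of at least 4000 UMIs, 1.36 with equal weight per cell and 1.21 at an equal cluster mix. Cxcl16 (0.835) had 0.870 at an equal cluster mix and 0.864 with low-UMI mixtures counted in. Cxcr4 there (1.08) had 1.27 under the stricter rule and 1.21 after thinning. In T cells the stricter rule gave 2.68 for Cxcr3 and 3.75 for S1pr1, with intervals that included 1. Mixed barcodes counted in turned the T cell share ratio (1.38) to 0.930. Among other ratios, Cxcl10 in dendritic cells (0.776) turned to 1.39 with classes from clusters, 1.30 under the stricter rule and 1.26 at an equal cluster mix, and Cxcr6 in monocytes and macrophages (0.354) turned to 1.03 under the stricter rule. Cxcl9 in T cells was 1.05 with classes from clusters. The causes were not tested. Counting in the low-UMI mixtures and leaving out shared barcodes were added after seeing the data. Counts under 30 UMIs in T cells limit what Cxcr3, Cxcr4 and S1pr1 can show.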

Other observations

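Barcodes that met the rules of more than 1 class held much of the Cxcr6 and Cxcr3 RNA. They carried 52.9% of all Cxcr6 UMIs in the sitagliptin library and 58.6% in the control library, and 40.4% and 42.6% of all Cxcr3 UMIs, but 13.3% and 17.1% of Cxcr4 UMIs and 15.1% and 17.8% of S1pr1 UMIs. Their Cxcr6 level was 52.0 and 58.1 CPM, a ratio of 0.894 (0.785 to 1.02), with 0.468 and 0.661 Cxcr6 UMIs per Cd3e UMI. Cd3e itself had 111 and 87.9 CPM in them. Cxcl9 in these barcodes was 681 and 456 CPM, a ratio of 1.49 (1.43 to 1.56).

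Plasmacytoid dendritic cells, known as strong sources of type I interferon, were 24 cells in the sitagliptin library and 13 in the control library. They had 32 and 0 Cxcl10 UMIs, 27 of them in 1 cell, and 15 and 0 Cxcl9 UMIs, 13 of them in 1 cell. Their Cxcr3 UMIs were 1 and 3.

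Of the 7 monocyte and macrophage clusters, the one led by Cxcl3 and Mmp12 had 14.3 CPM of S1pr1 in the sitagliptin library and 8.82 CPM in the control library. The one led by Ms4a7 and Ccl12 had 11.3 and 11.1 CPM. In the Ifit2 cluster it had 19 and 4 UMIs, a ratio of 3.25 (1.08 to 13.1).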
